A study of Mus musculus with 4 samples.

Results

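Krüppel-like factors (KLFs) are transcription factors that bind GC-rich and CACCC-type DNA through a conserved set of zinc fingers at their carboxyl end, while their differing amino-terminal parts recruit either activators or repressors. In fat tissue several of them act in sequence on the genes for PPARγ and C/EBPα, the master regulators of adipocyte differentiation: some members block that programme in precursor cells and others drive it. Outside adipocytes, Klf2 is known from endothelial cells, Klf4 and Klf5 from epithelium and smooth muscle, and Klf9 and Klf15 from the response to glucocorticoids.

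The 10 Klf genes described here, chosen by gene symbol for roles in adipocytes, epithelium and smooth muscle, were Klf2, Klf3, Klf4, Klf5, Klf6, Klf7, Klf9, Klf11, Klf13 and Klf15. They are 10 of 39179 genes measured, and all 10 passed the filter for testing (a mean of 10 or more normalized counts). Polyadenylated RNA of epididymal white adipose tissue, a visceral fat pad of male mice that lies along the epididymis, was sequenced from wild-type mice (WT, 2 libraries) and from mice labelled as Nck2 mutant or knockout (KO, 2 libraries), all on a mixed genetic background. The age, diet and number of animals behind a library, and whether the replicates came from separate animals, are not given in the labels, so p-values measure only the spread between these samples, which may be technical. Nck2 encodes an adaptor that couples tyrosine-phosphorylated receptors to the actin cytoskeleton, and the comparison is of transcript levels in the fat pad of either genotype.

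The libraries held 31831904 to 37980391 reads assigned to genes. Nck2 itself was at 1279 and 1667 normalized counts in WT and at 1076 and 947 in KO (log2 difference -0.53, adjusted p = 0.051). Its transcript was therefore still present in the libraries labelled KO. The authors' deposited values for it are -0.54 and an adjusted p of 0.021. The sources used here do not give the altered stretch of Nck2, so these values do not check the labels. Mature adipocyte markers were present in every library, but they were not alone. Markers of epididymis and male tract summed to 1150698 and 1409549 normalized counts in WT against 475 and 345 in KO, where 10 and 9 of the 20 markers were at 0 reads, and general epithelial markers summed to 39842 and 47655 against 4859 and 963. The WT and KO libraries therefore differed in tissue content as well as in genotype label, and the 2 cannot be told apart. In bulk RNA, moreover, fewer cells of a type and less RNA per cell cannot be told apart.

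The sequence before the start site is shown for 3 of the 4 members that rose, to be read beside their values. The 300-base windows are from RefSeq (GRCm38.p6), which held 9 of the 10 members. Each stretch is printed 5′ to 3′ on the gene's strand up to the first base that RefSeq or GENCODE M21 places in an exon. For Klf3, the other member that rose, that is the first base of its window, so no stretch is printed. Capitals mark matches on either strand to the GC box, searched as GGGCGG, and to the MEF2 box, the site of myocyte enhancer factor 2; letters of overlapping boxes run together. The CACCC box was searched on both strands as CCACCC and has no match in these 3 stretches. Klf2 spans chr8:72318812-72319032 on the plus strand, Klf4 chr4:55532476-55532725 on the minus strand and Klf11 chr12:24651121-24651273 on the plus strand.
Klf2: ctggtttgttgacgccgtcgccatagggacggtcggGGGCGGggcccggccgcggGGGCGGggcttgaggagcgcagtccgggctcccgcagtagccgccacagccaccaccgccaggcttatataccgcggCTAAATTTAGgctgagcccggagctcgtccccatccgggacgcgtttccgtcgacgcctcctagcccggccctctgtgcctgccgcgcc
Klf4: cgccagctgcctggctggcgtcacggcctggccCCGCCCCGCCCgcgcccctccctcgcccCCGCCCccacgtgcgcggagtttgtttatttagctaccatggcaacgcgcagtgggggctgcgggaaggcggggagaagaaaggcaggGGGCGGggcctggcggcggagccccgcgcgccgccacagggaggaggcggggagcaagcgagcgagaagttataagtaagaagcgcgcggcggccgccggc
Klf11: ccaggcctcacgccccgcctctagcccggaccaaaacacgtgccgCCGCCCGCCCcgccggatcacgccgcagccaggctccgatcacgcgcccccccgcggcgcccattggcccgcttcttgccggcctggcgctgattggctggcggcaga
Over the full windows, a GC box was found in 8 of 9 members, all but Klf9, against 35.7% of the 32851 RefSeq windows. Klf3 had 6 GC boxes and Klf4 and Klf11 had 4 each. A CACCC box was found in 4 of 9 members (Klf2, Klf3, Klf7 and Klf13), against 31.5% of windows, and GC boxes and CACCC boxes occurred both in members that rose and in members that did not pass the test. The MEF2 box was found in Klf2 alone, starting 118 bases before the start site, against 3.19% of all windows. The member windows were 58.3% to 77.7% G or C, and the windows of all genes were not matched for that. A match of letters is a description and not evidence that a factor binds.

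In the KO libraries 4 of the 10 members rose (Klf2, Klf3, Klf4 and Klf11), 1 fell (Klf5) and 5 did not pass the test (Klf6, Klf7, Klf9, Klf13 and Klf15). Over all 16710 genes tested, 22.4% were higher and 24.4% lower in KO, and 46.7% differed in either direction, so the 5 of 10 members called are near the background of this comparison. Both KO libraries were above both WT libraries for 5 members, against 38.9% of all tested genes, and below them for 1, against 40.6%; those 6 members without overlap compare with 79.5% of all genes. The rises were small, from 0.38 to 0.67 on the log2 scale, and the fall of Klf5 was -3.29. The median over the 10 members was 0.23, beside -0.01 over all tested genes and 1.66 over 20 mature adipocyte markers. Summed over the members, the level was 19988 and 19483 normalized counts in WT and 22267 and 25652 in KO. When libraries were scaled by total reads instead of the authors' size factors, a choice made after seeing the data, the median of all genes moved to -0.21 and the share of calls that were higher in KO went from 47.8% to 31.1%. On that scale 2 members were called higher (Klf2 and Klf4) and 1 lower (Klf5), against 15% and 33.2% of all genes, or 48.2% in either direction. On reads recovered from the values, edgeR called 3 members higher and 1 lower, against 21% and 24.4% of all genes (45.3% in either direction), and DESeq2 called 5 higher and 1 lower, against 21.1% and 23.5% (44.6% in either direction). With a library left out, its group holds 1 sample, which is assumed to vary like the other pair, and fewer degrees of freedom remain, so a lost or gained call in such a fit is not by itself a change in the difference. Without WT replicate 1 limma called 1 member higher (Klf4) and 0 lower, against 8.49% and 10.7% of all genes, and without WT replicate 2 the same counts stood against 3.95% and 7.07%. Without KO replicate 1 it called 3 higher and 1 lower, against 16.9% and 20.6%, and without KO replicate 2 it called 4 higher and 1 lower, against 14.4% and 19.4%.

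**Figure D1:**
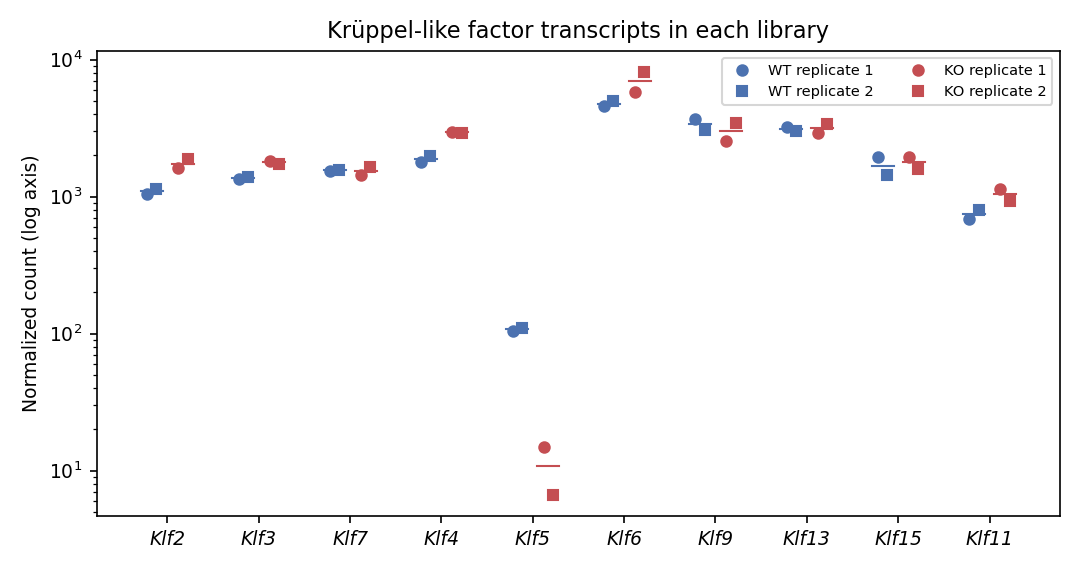
Normalized count of each Klf gene (log axis) in the 2 WT libraries (blue) and 2 KO libraries (red); circles are replicate 1, squares replicate 2 and horizontal lines group means. Klf5 sits near 107 in WT and near 10.8 in KO, while the other members lie between 692 and 8138 in all libraries.

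The first group of members is known to hold back adipocyte differentiation. Klf2 (ENSMUSG00000055148, GRCm38 chr8:72319033-72321656), which represses the Pparg promoter in precursor cells and is induced by blood flow in endothelium, was at 1048 and 1142 normalized counts in WT and at 1614 and 1872 in KO. Both KO libraries were above both WT libraries, with a mean of 1095 ± 65.9 (SD, n = 2) in WT and 1743 ± 182 in KO. The log2 difference was 0.67 (SE 0.10, adjusted p = 0.0093), a 1.59-fold rise. Leaving out WT replicate 1 or WT replicate 2 gave 0.61 or 0.73, with an adjusted p of 0.089 or 0.085.

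Klf3 (ENSMUSG00000029178, chr5:64803388-64832901), a repressor that recruits the corepressor CtBP and represses Cebpa, was at 1352 and 1383 in WT, and KO gave 1815 and 1737. The replicates lay close together, with gaps of 0.03 in WT and 0.06 in KO on the log2 scale, and the groups did not overlap. It rose by 0.38 (SE 0.064, adjusted p = 0.012), or 1.30-fold. Scaling by total reads gave 0.18 (adjusted p = 0.148), which was 0.39 above the median of all genes on that scale. With a library left out the difference stayed between 0.35 and 0.41, while the adjusted p was 0.076 without WT replicate 1, 0.082 without WT replicate 2 and 0.051 without KO replicate 1. A transcript on the opposite strand, Gm20033, shares exon sequence with Klf3; it was at 28.8 normalized counts or fewer in every library.

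Klf7 (ENSMUSG00000025959, chr1:64029447-64122282), which inhibits adipocyte differentiation in cultured cells, was at 1528 and 1577 in WT, and KO gave 1442 and 1642. The WT values lay inside the KO range, and the log2 difference was -0.01 with a 95% interval of -0.25 to 0.22 (adjusted p = 0.917). That interval reaches from 0.841 to 1.17 times the WT level. Progenitor and fibroblast markers, of the cells in which these members act, rose in 5 of 14 and fell in 0, with a median of 0.34. Over all tested genes 22.4% rose and 24.4% fell. These markers summed to 348087 and 330673 in WT, with 639947 and 607842 in KO. Their part in the Klf2 and Klf3 differences was not tested.

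**Figure D2:**
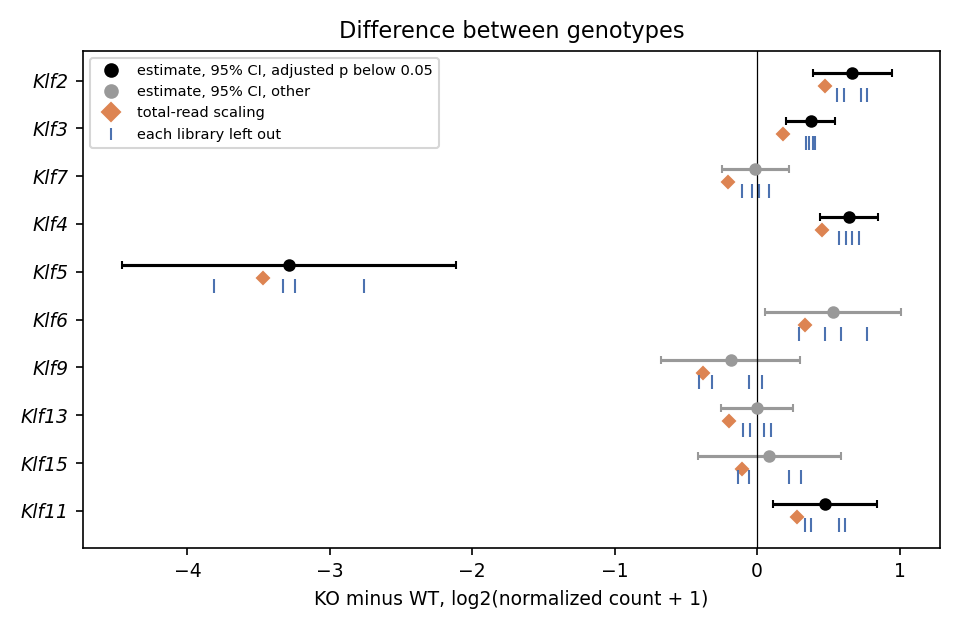
Difference between KO and WT on the log2(normalized count + 1) scale for each Klf gene. Circles with bars are estimates with 95% intervals (black where the adjusted p is below 0.05, grey otherwise), orange diamonds the values under total-read scaling, and blue ticks the values with each library left out in turn. Klf5 lies near -3.29, and the other members lie between -0.19 and 0.67.

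The second group acts early in adipocyte differentiation. Klf4 (ENSMUSG00000003032, chr4:55527143-55532466) activates Cebpb in the first hours of differentiation, and in other tissues serves epithelial barrier formation and changes in smooth muscle state. It was at 1786 and 1973 in WT, and KO gave 2980 and 2900. The groups did not overlap, and the means were 1880 ± 132 and 2940 ± 56.9. The log2 difference was 0.65 (SE 0.076, adjusted p = 0.0046), or 1.56-fold. Klf4 passed the threshold in all 15 alternative fits, with differences from 0.45 to 0.72.

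Klf5 (ENSMUSG00000005148, chr14:99298691-99315036), which C/EBPβ and C/EBPδ induce and which activates Pparg, is also abundant in proliferating epithelium and in smooth muscle under remodelling. It was at 104 and 111 normalized counts in WT and at 15.0 and 6.69 in KO, from 102, 119, 16 and 6 reads. Both KO libraries were far below both WT libraries, and the means were 107 ± 4.8 and 10.8 ± 5.9, 9.90 times lower in KO. The log2 difference was -3.29 (SE 0.44, adjusted p = 0.0063), from -2.76 without KO replicate 2 to -3.81 without KO replicate 1. Leaving out WT replicate 1 or WT replicate 2 gave an adjusted p of 0.074 or 0.089. Over all tested genes 24.4% fell and 22.4% rose. In the same comparison 16 of 17 general epithelial markers fell and 0 rose (median -7.46). Epcam, an epithelial adhesion molecule, was at 3450 and 3498 in WT and reached 12.2 and 8.93 in KO. Of 15 smooth muscle and pericyte markers 10 fell and 1 rose (median -3.81); the list summed to 464023 and 601246 in WT against 47197 and 54484 in KO, with no marker at 0 reads. The part of these tissues in the Klf5 difference was not tested.

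Klf6 (ENSMUSG00000000078, chr13:5861482-5870394), a factor induced by injury that represses the preadipocyte gene Dlk1, had the highest counts of the members. It was at 4584 and 4957 in WT, and KO gave 5833 and 8138. Both KO libraries were above both WT libraries, but they lay 0.48 apart on the log2 scale, nearly as far as the difference between the genotypes. That difference was 0.53 (SE 0.18, 95% interval 0.05 to 1.01), and its adjusted p of 0.070 did not pass. It was 0.77 without KO replicate 1 and 0.29 without KO replicate 2. The first of these fits passed (adjusted p = 0.015), but its spread leaves out the gap between the KO libraries. DESeq2 on recovered reads gave 0.54 (adjusted p = 0.019), and the authors' deposited table lists 0.55 with an adjusted p of 0.018.

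The third group supports the later steps and the metabolism of the mature adipocyte, and no member of it had a call. Klf9 (ENSMUSG00000033863, chr19:23141226-23168134), a glucocorticoid-induced factor that promotes differentiation, was at 3702 and 3082 in WT, and KO gave 2551 and 3455. The KO libraries lay on either side of the lower WT library, and the log2 difference was -0.19 with a 95% interval of -0.68 to 0.30 (adjusted p = 0.442). Klf13 (ENSMUSG00000052040, chr7:63886351-63938915), which acts at the Pparg promoter, was at 3249 and 3034 in WT, and KO gave 2926 and 3362. The WT values lay within the KO range, and the 95% interval of -0.26 to 0.25 leaves room for a 1.19-fold rise or a fall to 0.838 of WT. Klf15 (ENSMUSG00000030087, chr6:90462576-90475238), which induces the glucose transporter gene Slc2a4 and amino acid breakdown, was at 1943 and 1430 in WT, and KO gave 1950 and 1603. Its WT replicates differed by 0.44 on the log2 scale, more than the 0.09 between the genotypes (95% interval -0.42 to 0.59, adjusted p = 0.731). On the total-read scale Klf7, Klf9 and Klf13 were at -0.21, -0.38 and -0.20 and Klf15 at -0.11, and 0 of these 4 passed there.

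Mature adipocyte markers moved much further than these adipocyte-associated members in the same libraries. Of 20 markers 14 rose and 0 fell, against 22.4% and 24.4% of all tested genes. Their summed level was 1105484 and 739524 in WT and 2624758 and 2941670 in KO. Aqp7, the adipocyte glycerol channel, was at 2315 and 2117 in WT, and KO gave 8519 and 8909 (log2 difference 1.98, adjusted p = 0.00064). The greatest rise of any member, 0.67 for Klf2, was below the adipocyte median of 1.66.

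Klf11 (ENSMUSG00000020653, chr12:24651274-24662789), a TGF-β-inducible factor that recruits the Sin3a corepressor and works with PPARγ in brown and beige adipocytes, was at 692 and 795 in WT, and KO gave 1140 and 935. The groups did not overlap, and the log2 difference was 0.48 (SE 0.14, adjusted p = 0.047), the call nearest to the threshold among the members. DESeq2 on recovered reads kept the call (0.47, adjusted p = 0.037), and the authors' deposited table lists 0.48 with an adjusted p of 0.032. The call was lost with edgeR (adjusted p = 0.060), TMM scaling (0.060), no filter (0.055) and total-read scaling (0.210). It was also lost at 0.38 without WT replicate 1 (0.235), 0.58 without WT replicate 2 (0.152) and 0.33 without KO replicate 1 (0.130). The difference kept its sign in all 15 alternatives, from 0.28 to 0.62.

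Levels of different genes are compared per kilobase of annotated exon and scaled to the assigned reads of each library (reads per kilobase per 1000000 reads), a scale that takes total reads and not the size factors as its base. Klf6 was the most abundant member on that scale, at 33.9 ± 2.4 (SD, n = 2) in WT and 43.2 ± 8.3 in KO. In WT it was followed by Klf9 (22.0 ± 2.5), Klf4 (19.2 ± 1.7), Klf15 (18.8 ± 3.7) and Klf2 (18.5 ± 1.4), and the ranges of these neighbours overlapped. Below them, without overlap between neighbours, came Klf13 (13.0 ± 0.4), Klf7 (5.96 ± 0.23), Klf11 (5.35 ± 0.61) and Klf3 (3.79 ± 0.12), with Klf5 lowest at 0.644 ± 0.039. In KO the order after Klf6 was Klf4 (26.3 ± 1.6) and Klf2 (25.7 ± 1.6), whose ranges overlapped. Klf15 (17.4 ± 3.1) and Klf9 (16.9 ± 2.9), also overlapping, came next, before Klf13 (11.4 ± 0.6), Klf11 (6.54 ± 1.19), Klf7 (5.16 ± 0.25), Klf3 (4.31 ± 0.32) and Klf5 (0.0575 ± 0.0332). By group means Klf9 was at rank 2 in WT and rank 5 in KO, and Klf2 at rank 5 and rank 3. These ranks are not firm, because the neighbours named above overlapped, and Klf9 had no call between the genotypes. Klf3 has 9 annotated transcripts, and with the longest transcript as the length it was at 8.17 ± 0.26 in WT, above Klf7 at 6.32 ± 0.24.

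**Figure D3:**
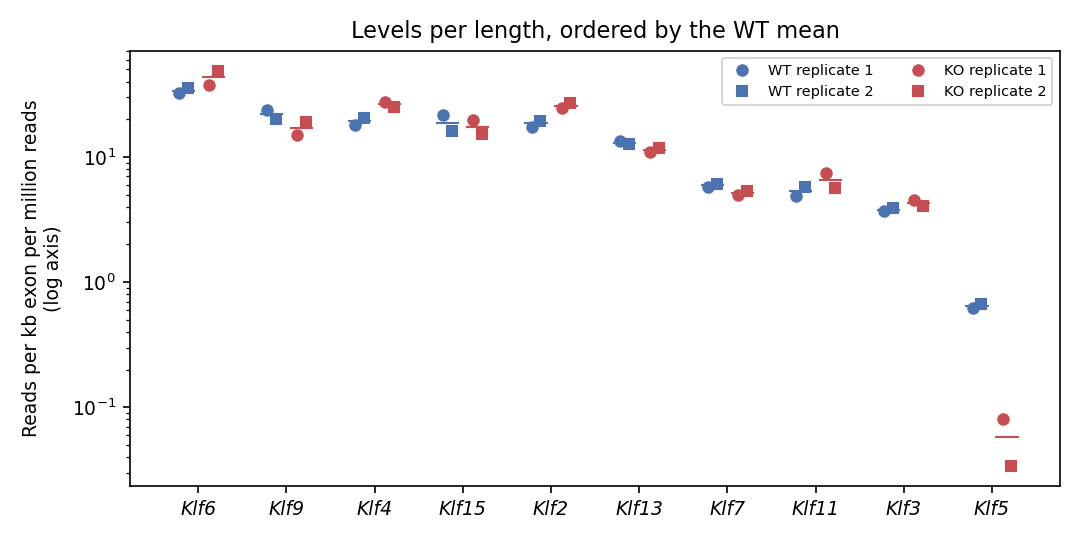
Level of each Klf gene as reads per kilobase of annotated exon per 1000000 assigned reads (log axis), ordered by the WT mean; blue is WT, red is KO, circles are replicate 1, squares replicate 2 and lines group means. Klf6 leads in both genotypes, at 33.9 in WT and 43.2 in KO, and Klf5 is lowest in both, at 0.644 and 0.0575.

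Genes that act on, with or under the members are given by count, to be read beside 22.4% higher and 24.4% lower over all tested genes. Among 13 upstream regulators 6 rose and 4 fell (median 0.18). Nr3c1, the glucocorticoid receptor, was at 5451 and 4624 in WT, and KO gave 9974 and 8934 (log2 difference 0.91, adjusted p = 0.0055), and Foxo1, a forkhead factor that controls Klf2 in lymphocytes, rose by 0.95 (adjusted p = 0.0045). Myocd, the smooth muscle coactivator myocardin, was at 1379 and 1484 in WT, and KO gave 25.3 and 24.5. It is also among the smooth muscle and pericyte markers, and the part of that tissue in its fall was not tested. Srf, the DNA-binding partner of myocardin, fell by 0.69 on the log2 scale (adjusted p = 0.0055). Nr3c1, Foxo1 and Srf did not pass without WT replicate 2 (0.064, 0.067 and 0.065).

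Of 18 corepressors, coactivators and ubiquitin ligases of KLF proteins, 3 rose and 3 fell (median 0.03). Wwp1, a ubiquitin ligase that targets KLF2 and KLF5 protein, was at 2638 and 2706 in WT, and KO gave 4247 and 4337 (log2 difference 0.68, SE 0.059, adjusted p = 0.0024). Smurf1, another ligase of that family, rose by 0.65 (adjusted p = 0.0029). Sin3b, a corepressor scaffold, was at -0.59 (adjusted p = 0.0066), which became 0.066 without either WT library in turn.

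Of 10 adipogenic genes on which KLFs act, 5 rose and 2 fell (median 0.99). Pparg, Adipoq and Lep of this list are also among the mature adipocyte markers, so it is not separate from them. The part of adipocyte content in these differences was not tested. Pparg was at 4012 and 3418 in WT, and KO gave 10452 and 9896 (log2 difference 1.46, adjusted p = 0.0016). Gata2, which restrains adipocyte differentiation, was at 2425 and 2996 in WT, and KO gave 483 and 558. Of 11 tested metabolic targets of Klf15, 4 rose and 3 fell (median 0.39), while Klf15 itself had no call. Gpt, an alanine aminotransferase, rose by 1.74 (adjusted p = 0.0061), and Got2, the mitochondrial aspartate aminotransferase, was at 5251 and 5384 in WT and reached 1184 and 1127 in KO.

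Of 10 endothelial targets of Klf2 and Klf4, 5 rose and 2 fell (median 0.63). Tek, which is also among the endothelial markers, had the smallest p of the list and rose by 1.13 (adjusted p = 0.0037). S1pr1 rose by 0.82 (adjusted p = 0.013). Thbd, the anticoagulant receptor thrombomodulin, was at 7387 and 7193 in WT, and KO gave 14706 and 11458 (log2 difference 0.83, adjusted p = 0.012, or 0.105 without WT replicate 1 and 0.126 without WT replicate 2). Vcam1, an adhesion molecule that Klf2 is known to repress, was at 1113 and 1116 in WT, and KO gave 640 and 786 (adjusted p = 0.015, or 0.121 and 0.137 without those libraries in turn). Endothelial markers moved in the same comparison: 12 of 15 rose and 0 fell, with a median of 0.85. They summed to 47639 and 39976 in WT and to 73883 and 85013 in KO, and none was at 0 reads. Macrophage and myeloid markers rose in 14 of 15 and fell in 0, with a median of 1.04, and summed to 32767 and 31918 in WT and to 69092 and 64250 in KO. The part of these cells in the Klf2 and Klf4 differences, both below those medians, was not tested.

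Of 12 epithelial and smooth muscle targets of Klf4 and Klf5, 11 fell and 0 rose (median -5.13). Cnn1, the smooth muscle protein calponin, was at 41811 and 50729 in WT, and KO gave 65.6 and 102, while Klf4 was higher in KO. This list shares 9 of its 12 genes with the smooth muscle and general epithelial marker lists, so it is not separate from them.

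A pair of stimuli that induce several members were read from lists of their other targets. Of 13 glucocorticoid-responsive genes 3 rose and 3 fell (median -0.17). These shares, 23.1% each, are near the 22.4% higher and 24.4% lower over all tested genes. Fkbp5, a chaperone of the glucocorticoid receptor, was at 8808 and 6174 in WT, and KO gave 1434 and 1650 (log2 difference -2.26, adjusted p = 0.0024), whereas Pdk4, a kinase that restrains glucose oxidation, rose by 1.48 (adjusted p = 0.0023). Klf9 and Klf15, which belong to the same response, did not pass in either direction. Of 18 immediate early genes, which rise within minutes of a stimulus or of tissue handling, 5 rose and 2 fell (median 0.30). Those are 27.8% and 11.1% of the list. Fos was at 206 and 216 in WT, and KO gave 469 and 539 (log2 difference 1.25, adjusted p = 0.0031, or 0.052 and 0.061 with WT replicate 1 or 2 left out). Ier3 was at -2.03 (adjusted p = 0.0049, or 0.068 without WT replicate 2). Klf2, Klf4 and Klf6 can be induced in the same way, and the part of handling in their values was not tested.

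**Figure D4:**
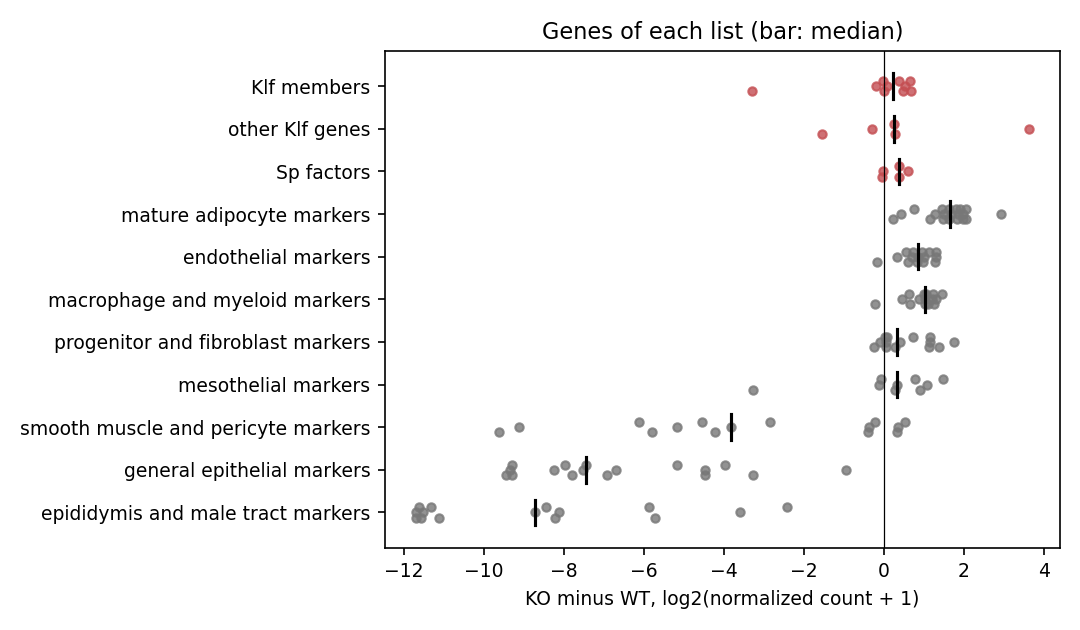
Difference between KO and WT (log2(normalized count + 1) scale) for each tested gene of the Klf lists and Sp factors (red) and of cell type marker lists (grey); black bars are list medians. The Klf members have a median of 0.23, between the adipocyte markers at 1.66 and the smooth muscle (-3.81), general epithelial (-7.46) and male tract (-8.71) markers.

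The remaining Klf genes included the greatest rise of the family. Klf14 (ENSMUSG00000073209, chr6:30956023-30959078), an imprinted gene with known effects on adipose gene expression, was at 49.9 and 24.2 in WT, and KO gave 270 and 723. Both KO libraries were far above both WT libraries, although the replicates of each genotype also differed more than 2-fold. The log2 difference was 3.63 (SE 0.61, adjusted p = 0.012). It was 4.34 without KO replicate 1, 2.92 without KO replicate 2, 4.14 without WT replicate 1 (adjusted p = 0.077) and 3.12 without WT replicate 2 (adjusted p = 0.124). Klf12, a CtBP-binding repressor, was at 39.7 and 35.4 in WT, and KO gave 10.3 and 14.5 (log2 difference -1.54, adjusted p = 0.023). That p became 0.093 without WT replicate 1, 0.092 without WT replicate 2 and 0.067 without KO replicate 1. Klf10, a TGF-β-inducible relative of Klf11, was at 0.29 (adjusted p = 0.073), Klf8 at 0.24 and Klf16 at -0.29, and these 3 did not pass. Klf1, the erythroid member, and Klf17 were below the filter, with at most 9.30 and 3.72 normalized counts.

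Sp factors share the zinc fingers and the GC-rich target of the KLFs. Of 5 tested, 2 rose and 0 fell, against 22.4% and 24.4% of all tested genes. The 2 of 5 called are near the 46.7% of all tested genes called in either direction. Sp2 was at 885 and 848 in WT, and KO gave 1286 and 1326 (log2 difference 0.59, SE 0.069, adjusted p = 0.0046, or 0.060 without WT replicate 2). Sp3 rose by 0.38 (adjusted p = 0.019), and it did not pass in any fit with a library left out (0.055 to 0.102) or with total-read scaling (0.147). Sp2 and Sp3 each share exon sequence with a transcript on the opposite strand, D030028A08Rik and Sp3os, and the sources used here do not say whether reads were counted by strand. Sp1, the ubiquitous founding member, was at 3516 and 3501 in WT, and KO gave 3393 and 3417, a log2 difference of -0.04 (95% interval -0.20 to 0.11).

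**Figure D5:**
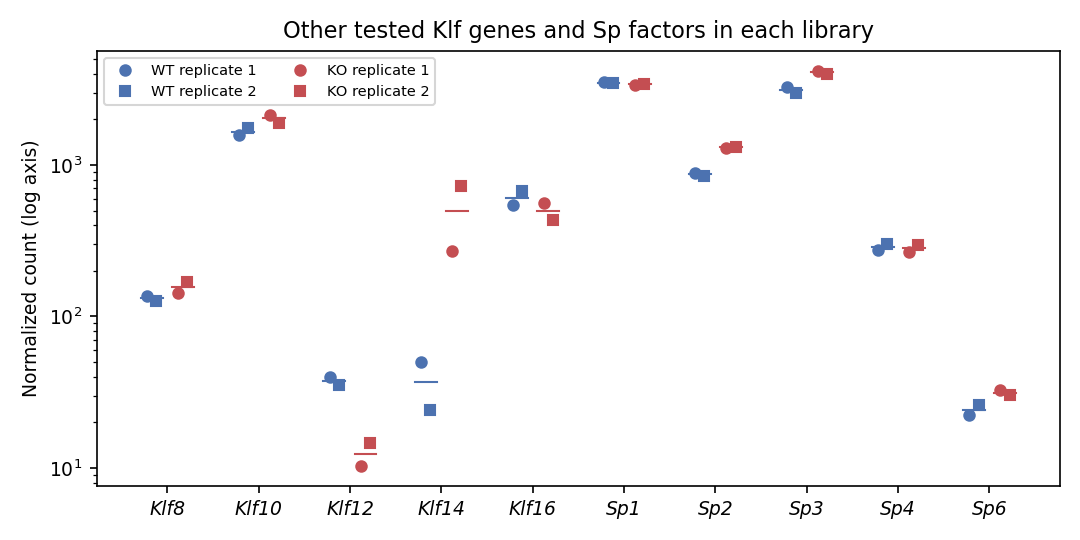
Normalized count (log axis) of the other tested Klf genes and of the tested Sp factors in the WT (blue) and KO (red) libraries; circles are replicate 1, squares replicate 2 and lines group means. Klf14 goes from 24.2 and 49.9 in WT to 270 and 723 in KO, and Klf12 from 39.7 and 35.4 to 10.3 and 14.5.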

How the data were processed

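RNA from 4 libraries, 2 WT and 2 KO, was measured. DESeq2 1.4.5, HTSeq 0.5.3, TopHat2 2.0.10 and CASAVA 1.8 are named, with GRCm38, by the submitters' processing notes, and the sources used here name no strand setting. The authors deposited normalized counts, a signal in which reads per gene are scaled by each library's size factor. The authors also deposited log2 fold changes, p-values and a score (the test statistic). Dividing by the value of 1 read gave whole reads for 100% of values (tolerance 0.01). A value of 0 is 0 reads, and it was taken to allow an expected count of up to 3 reads.

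limma 3.58.1 in R 4.3.3, with its trend option, was applied to log2(normalized count + 1) of genes whose mean was at least 10, p-values adjusted by Benjamini-Hochberg at 0.05 over 16710 genes; intervals are 95%. The pseudocount understates changes of low genes. edgeR 4.0.16 and DESeq2 1.42.0 were run on recovered reads. Other alternatives were pseudocounts of 0.5 and 5, other filters, upper-quartile, TMM and total-read scaling, robust moderation, a replicate block and each library left out. The members and lists were chosen with earlier results of these data known. Named genes are all members, other tested Klf and Sp genes, Nck2 and up to 4 genes of each list by smallest p. Positions and exon lengths are from GENCODE M21 (GRCm38). Protein sequences were not used here. A gene of 1 marker list is not reported here.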

Additional observations from a re-analysis of the deposited data

How the results depend on the processing

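Of the members, Klf4 was called in all 15 alternative fits, Klf2 and Klf5 in 13, Klf3 in 11, Klf11 in 7 and Klf6 in 2, of which 1 leaves out a KO library and takes its spread from the WT pair. The member counts were 1 to 4 higher and 0 to 1 lower with a library left out, and calls over all genes were 650 to 2849 higher and 1163 to 3477 lower. edgeR called 3503 genes higher and 4070 lower. Total-read scaling, added after seeing the data, called 2 members higher and gave Klf15 -0.11. Signs turned with upper-quartile scaling for Klf7 (0.0039) and Klf13 (0.015), and with a library left out for Klf7 (-0.11 to 0.081), Klf9 (-0.40 to 0.032), Klf13 (-0.10 to 0.10), Klf15 (-0.14 to 0.31) and Sp4 (-0.11 to 0.049), which had no call. The cause was not tested. Among list genes not named above, Muc16 ran from -0.16 to 2.33 and Lrrn4 from -0.29 to 1.83 with a library left out. The median member level per kilobase in WT was 15.8 by exon union and 16.9 by longest transcript. Same-numbered libraries of the groups did not deviate together (correlation -0.0090 over genes), so the numbers were not taken to pair them. With the replicate block 3 members were higher and 1 lower, 2737 genes higher and 3339 lower; Klf11 (adjusted p = 0.095) and Klf12 (0.058) lost their calls. Klf5 in KO rests on 16 and 6 reads.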

Other observations

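The summed level of mesothelial markers, genes of the lining that covers the fat pad, differed more between the 2 KO libraries than between the genotypes. It was 26931 normalized counts in KO replicate 1 and 5221 in KO replicate 2, against 14471 and 22187 in WT. Msln, encoding mesothelin, was at 4519 and 709 in KO and at 485 and 845 in WT, and Krt19, a keratin of mesothelium and other epithelia, was at 2497 and 420 in KO against 8364 and 11854 in WT. Of the 9 markers 0 rose and 1 fell, against 22.4% and 24.4% of all tested genes. Both KO libraries were above both WT libraries for 0 markers and below them for 1. Over all tested genes those shares were 38.9% and 40.6%.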
